A study of Rattus norvegicus with 22 samples.

Results

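The presynaptic release machinery was taken as a list of 37 genes with established roles in loading, docking, priming, fusing or retrieving synaptic vesicles. It was set by these roles and not by a measured threshold, with earlier results of these data known. All 37 were among the 17172 genes of the deposited count table, and all 37 passed the filter on low counts that left 12875 genes for testing. By role the list held 11 vesicle genes, 6 genes of the SNARE fusion complex and its recycling, 8 calcium sensors and fusion clamps, 9 active zone genes and 3 genes of vesicle endocytosis.

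The RNA came from the ipsilateral (right) hippocampus of 14 adult male Sprague-Dawley rats. The injured animals received a lateral fluid percussion of moderate severity (TBI), and the sham animals had the same anesthesia and surgery without the percussion. Tissue was collected at day 1 (2 sham and 4 TBI rats) or day 14 (4 sham and 4 TBI rats), with 1 library per rat. All groups share the craniotomy and the anesthesia, the model is a single impact to 1 side of the brain in male rats only, and ages in days or weeks are not given in the sources used here. Sham day 1 rests on 2 animals, so its mean is the least certain of the 4.

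At a chemical synapse, neurotransmitter is packed into vesicles, which are tethered at the active zone by large scaffold proteins, primed there by Munc13 and RIM proteins, and fused by the SNARE complex when calcium binds a synaptotagmin. Complexins hold the primed complex ready, NSF takes spent SNARE complexes apart, and dynamin, amphiphysin and synaptojanin recover the membrane. The hippocampus is rich in such terminals, among them the mossy fibers of the dentate gyrus and the terminals of GABAergic interneurons. These transcripts are made in cell bodies, and in bulk tissue fewer neurons and less RNA per neuron cannot be told apart.

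The libraries held 15065540 to 23743703 counts. Levels are given as CPM, counts scaled to a fixed library size after TMM factors had adjusted each library for its composition; fold changes compare a gene with itself and no level is compared between genes. Marker genes of the choroid plexus, a neighbouring tissue that makes cerebrospinal fluid, summed to 11400 CPM in sham day 1 replicate 1, 8850 in TBI day 14 replicate 3 and 2120 in TBI day 14 replicate 2, against 135 to 259 in the other 11 libraries. The number of members called at day 1 is therefore also given without sham day 1 replicate 1. For several genes the range of the log2 fold change over single libraries left out is given. All 15 pan-neuronal markers were present in every group. A gene is called changed where edgeR's adjusted p is under 0.05 over all 12875 genes.

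A set of 6 genes was called different between day 1 and day 14 in the same direction in sham and in TBI animals. The 3 higher ones are 8.11% of the members, beside 7.69% of all tested genes, so the higher share is near the background. The 3 lower ones are also 8.11%, beside 4.68%, a difference that rests on 3 genes and was not tested. The promoters of all 6 genes are shown here so that the 2 directions can be set side by side. The promoters come from RefSeq, rat build GRCr8, and run from 250 bases before to 50 bases after the gene start, 5′ to 3′ on the gene's strand. They lie at chrX:3725495-3725794 (plus strand) for Syn1, chr10:54292539-54292838 (plus) for Vamp2, chr12:27306422-27306721 (minus) for Stx1a, chr2:186430113-186430412 (plus) for Sv2a, chr1:104017874-104018173 (plus) for Syt3 and chr16:18415737-18416036 (minus) for Unc13a. The first 3 genes were higher at day 1 and the last 3 lower. Capitals mark matches, on either strand, to the cAMP response element TGACGTCA, the RE1 motif parts TTCAGCACC and GGACAGCG, the GC box GGGCGG and the TATA box TATAAA.
Syn1: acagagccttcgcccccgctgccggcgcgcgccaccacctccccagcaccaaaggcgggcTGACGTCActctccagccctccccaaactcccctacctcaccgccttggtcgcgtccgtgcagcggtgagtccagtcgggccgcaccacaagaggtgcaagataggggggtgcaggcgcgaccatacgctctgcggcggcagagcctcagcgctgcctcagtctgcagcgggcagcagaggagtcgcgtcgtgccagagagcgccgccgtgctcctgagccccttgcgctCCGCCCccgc
Vamp2: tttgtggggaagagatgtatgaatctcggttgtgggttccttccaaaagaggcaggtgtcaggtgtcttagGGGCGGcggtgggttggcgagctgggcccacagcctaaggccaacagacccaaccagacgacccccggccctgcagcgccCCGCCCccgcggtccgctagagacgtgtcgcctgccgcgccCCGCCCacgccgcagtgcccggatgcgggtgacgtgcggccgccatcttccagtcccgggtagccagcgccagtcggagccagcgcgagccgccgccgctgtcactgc
Stx1a: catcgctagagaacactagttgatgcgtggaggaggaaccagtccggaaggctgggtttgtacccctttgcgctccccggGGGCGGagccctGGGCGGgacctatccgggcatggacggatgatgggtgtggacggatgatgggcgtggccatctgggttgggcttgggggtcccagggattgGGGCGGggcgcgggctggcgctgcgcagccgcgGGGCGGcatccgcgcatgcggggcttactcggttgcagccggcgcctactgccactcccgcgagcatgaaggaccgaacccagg
Sv2a: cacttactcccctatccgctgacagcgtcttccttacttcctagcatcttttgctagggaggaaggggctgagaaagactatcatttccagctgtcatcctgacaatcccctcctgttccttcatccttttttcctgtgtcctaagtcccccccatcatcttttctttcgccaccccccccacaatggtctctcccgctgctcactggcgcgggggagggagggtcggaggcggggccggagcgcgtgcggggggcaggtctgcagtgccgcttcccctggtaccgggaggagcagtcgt
Syt3: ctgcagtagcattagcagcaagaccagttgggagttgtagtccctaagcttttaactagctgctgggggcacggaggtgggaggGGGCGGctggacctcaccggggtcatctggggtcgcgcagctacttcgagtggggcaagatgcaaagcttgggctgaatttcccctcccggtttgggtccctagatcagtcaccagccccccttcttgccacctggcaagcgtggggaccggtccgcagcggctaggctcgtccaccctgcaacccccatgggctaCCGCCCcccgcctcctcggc
Unc13a: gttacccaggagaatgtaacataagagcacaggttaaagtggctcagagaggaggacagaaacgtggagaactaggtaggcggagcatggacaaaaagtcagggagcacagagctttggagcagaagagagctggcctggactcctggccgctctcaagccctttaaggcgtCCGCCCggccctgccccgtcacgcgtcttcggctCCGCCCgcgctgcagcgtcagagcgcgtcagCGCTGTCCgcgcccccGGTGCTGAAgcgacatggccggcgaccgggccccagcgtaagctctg

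Syn1 held the cAMP response element, which reads the same on both strands, and 1 GC box. Unc13a held both RE1 motif parts and 2 GC boxes. Vamp2 had 3 GC boxes, Stx1a had 4 and Syt3 had 2, while none of the 5 motifs was found in the Sv2a window. Over the 33 promoters listed for 32 of the members (Syn3, Syt5, Snap25, Rims2 and Syt7 had no entry, and Unc13b had 2), the GC box was present in 69.7%, against 33.1% of all 33469 rat promoters. The cAMP response element was in 6.06% (Syn1 and Vamp1) against 1.83% of all, the RE1 part GGACAGCG in 9.09% (Pclo, Unc13a and Unc13b) against 1.21%, and TTCAGCACC in 3.03% (Unc13a) against 0.356%. TATAAA was in 0 of the 33 member promoters and in 14.2% of all. The member promoters were richer in G and C, with a median GC content of 64.0% against 51.7%, and no hits of different motifs overlapped. GC boxes were present in both direction groups, and these matches are letters in a window and not measured binding.

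The first comparison asked how the release machinery differed 1 day after injury from sham animals of the same day. Most members were lower in TBI. The log2 fold change was below 0 for 34 of 37 members (51.3% of all tested genes), with a median of -0.64 against -0.02 over all tested genes. At an unadjusted p under 0.05 there were 28 lower members, beside 17.0% of all tested genes. The test called 13 members lower and 0 higher, which is 35.1% of the list called lower beside 7.93% of all tested genes, while 11.2% of all tested genes were called higher. For 24 members (64.9%) the 4 TBI libraries all lay below both sham libraries, beside 14.1% of all tested genes. The calls included 5 of 9 active zone genes, 4 of 11 vesicle genes, 2 of 8 calcium sensors and clamps, 2 of 3 endocytosis genes and 0 of 6 SNARE genes. A further 12 of the 37 members had an adjusted p between 0.05 and 0.10, beside 1179 of all 12875 tested genes.

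The count depended on the 2 sham animals and on how the counts were fitted. Without sham day 1 replicate 1, the library with choroid plexus RNA, 18 members were called lower, of which 11 were among the 13: Rims1 and Rims2 were no longer called, and Syn2, Vamp1, Vamp2, Nsf, Syt1, Syt4 and Synj1 were added. Without sham day 1 replicate 2, 0 were called by edgeR, with 6 at an unadjusted p under 0.05 and a median log2 fold change of -0.45. A fit on the 6 day 1 libraries alone also called 0, with 18 at an unadjusted p under 0.05 and a median of -0.62. DESeq2 called 21 and limma-voom 11. The share of all tested genes called was taken for the reported fit only. The counts under other fits are therefore not set against a background of their own. Leaving out a library of a group not compared moved the count too, to 7 without sham day 14 replicate 1, 2 or 4 or TBI day 14 replicate 1 or 4. All 14 libraries share 1 fit, so this changes the spread estimate, the TMM factors, the filter and the adjustment together. Which of these moved the count was not tested. Within the injured group, the count was 8 without TBI day 1 replicate 2. A core of 6 members, Bsn, Pclo, Unc13a, Sv2a, Synpr and Syt2, were called lower in 21 of 23 settings, the exceptions being the fit without sham day 1 replicate 2 and the fit on the day 1 libraries alone.

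**Figure D1:**
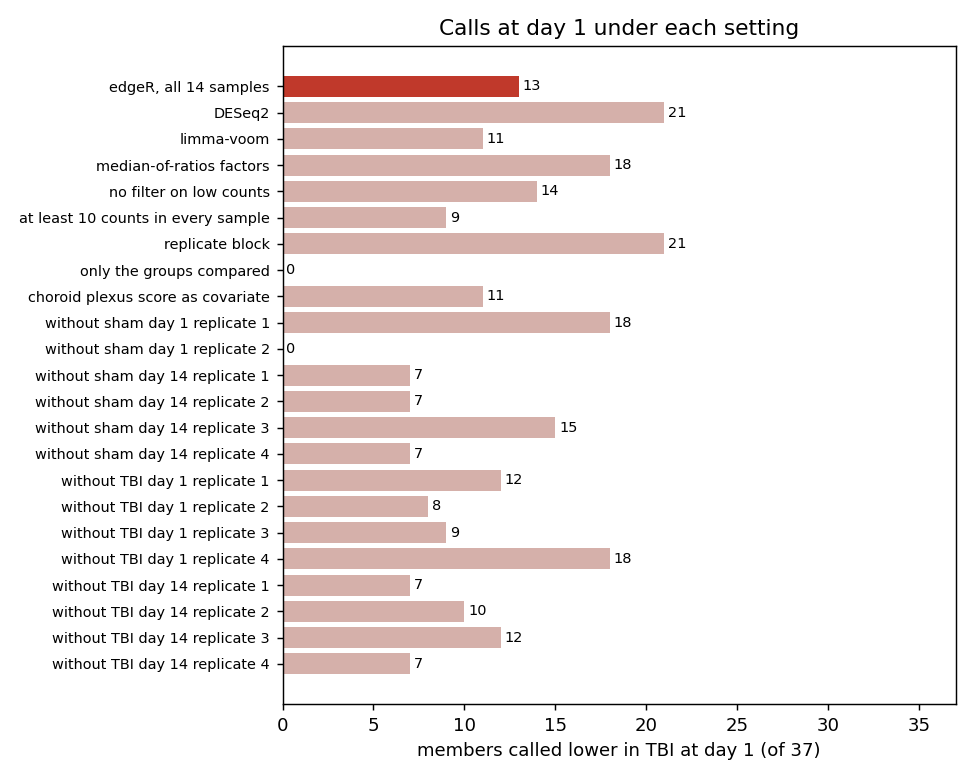
Number of the 37 members called lower in TBI than in sham at day 1 (bars, horizontal axis) under each way of fitting the counts, with the reported fit in dark red. The count was 13 in the reported fit and ranged from 0 to 21 over the settings.

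The 2 sham day 1 libraries were apart from each other. Replicate 2 was the higher of the pair for 28 of 37 members, by a median of 0.41 on the log2 scale, and it had the highest level of all 14 libraries for 18 members. The members summed to 19700 CPM in replicate 1 and 26800 in replicate 2, against 16000 to 20100 in sham day 14. In the TBI day 1 group, replicate 1 was the lowest of its group for 25 members and the lowest of all 14 libraries for 19. Its members summed to 10400 CPM, against 15700 to 16500 in the other 3 TBI day 1 libraries, and its oligodendrocyte markers summed to 15900 CPM against 4370 to 9350 in them. Without it 12 members were called lower, 10 of them among the 13.

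Active zone genes gave 5 of the 13 calls. Bsn encodes bassoon, a giant scaffold that organises the active zone. Its level was 525 and 901 CPM in the sham day 1 libraries and 248, 374, 394 and 440 CPM in TBI day 1. Every injured library was below both shams, and the log2 fold change was -0.97 (SE 0.211, adjusted p = 0.00578), so the level fell by 49.0%. Leaving out single libraries gave -1.31 to -0.53, the latter without sham day 1 replicate 2. At day 14, Bsn was at 1059, 1014, 1163 and 1028 CPM in sham and at 877, 790, 832 and 849 CPM in TBI. Those groups did not overlap either, but the difference of -0.35 (SE 0.178) had an adjusted p of 0.447.

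Pclo encodes piccolo, the partner scaffold of bassoon. It stood at 237 and 585 CPM in sham day 1 and at 158, 169, 114 and 225 CPM in TBI day 1. The groups were apart, and the difference was -1.31 on the log2 scale (SE 0.314, adjusted p = 0.01), but the nearest sham and TBI libraries differed little. At day 14 the values were 389, 408, 541 and 334 CPM in sham and 440, 259, 366 and 318 CPM in TBI, which overlapped (log2 fold change -0.27, adjusted p = 0.794). The day 1 difference ran from -1.82 to -0.51 with single libraries left out, the latter without sham day 1 replicate 2.

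Unc13a encodes Munc13-1, the main vesicle priming factor of excitatory terminals. It measured 298 and 393 CPM in sham day 1 and 250, 234, 175 and 251 CPM in TBI day 1. The difference was -0.60 on the log2 scale (SE 0.164, adjusted p = 0.0195). With single libraries left out it was -0.79 to -0.39, the latter without sham day 1 replicate 2. In sham day 14 it was at 595, 554, 478 and 516 CPM, and in TBI day 14 at 486, 447, 410 and 427 CPM. The day 1 groups did not overlap, the day 14 groups did, and both day 1 groups lay below all day 14 libraries.

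Rims1 and Rims2 encode RIM proteins, which tether vesicles and calcium channels at the active zone. Rims1 stood at 495 and 477 CPM in sham day 1 against 374, 352, 239 and 363 CPM in TBI day 1 (log2 fold change -0.55, SE 0.176, adjusted p = 0.0409). Its day 14 levels were 400, 334, 463 and 357 CPM in sham and 281, 296, 313 and 336 CPM in TBI. Rims2 had 125 and 140 CPM in sham day 1 against 117, 94.7, 66.9 and 82.8 CPM in TBI day 1 (log2 fold change -0.55, SE 0.177, adjusted p = 0.0416). Both were apart at day 1, and Rims2 was also apart at day 14, with 120, 109, 129 and 102 CPM in sham and 79.6, 87.6, 86.0 and 93.9 CPM in TBI, although its difference of -0.41 (SE 0.148) did not pass the test (adjusted p = 0.19). These 2 calls were the least stable of the active zone calls, holding in 10 and 7 of 23 settings.

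The other 4 active zone genes were not called at day 1. Erc2, which encodes an ELKS scaffold protein, was at -0.85 on the log2 scale (SE 0.526, adjusted p = 0.272), and Rims3, a short RIM, had -0.93 (SE 0.425, adjusted p = 0.138). Unc13c, encoding Munc13-3, was at -0.57 (adjusted p = 0.36). Unc13b, encoding Munc13-2, was 1 of the 3 members above 0, at 0.15 (SE 0.334, adjusted p = 0.791). The paralogs Unc13a and Unc13b thus had estimates of opposite sign, and the difference between them was not tested.

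**Figure D2:**
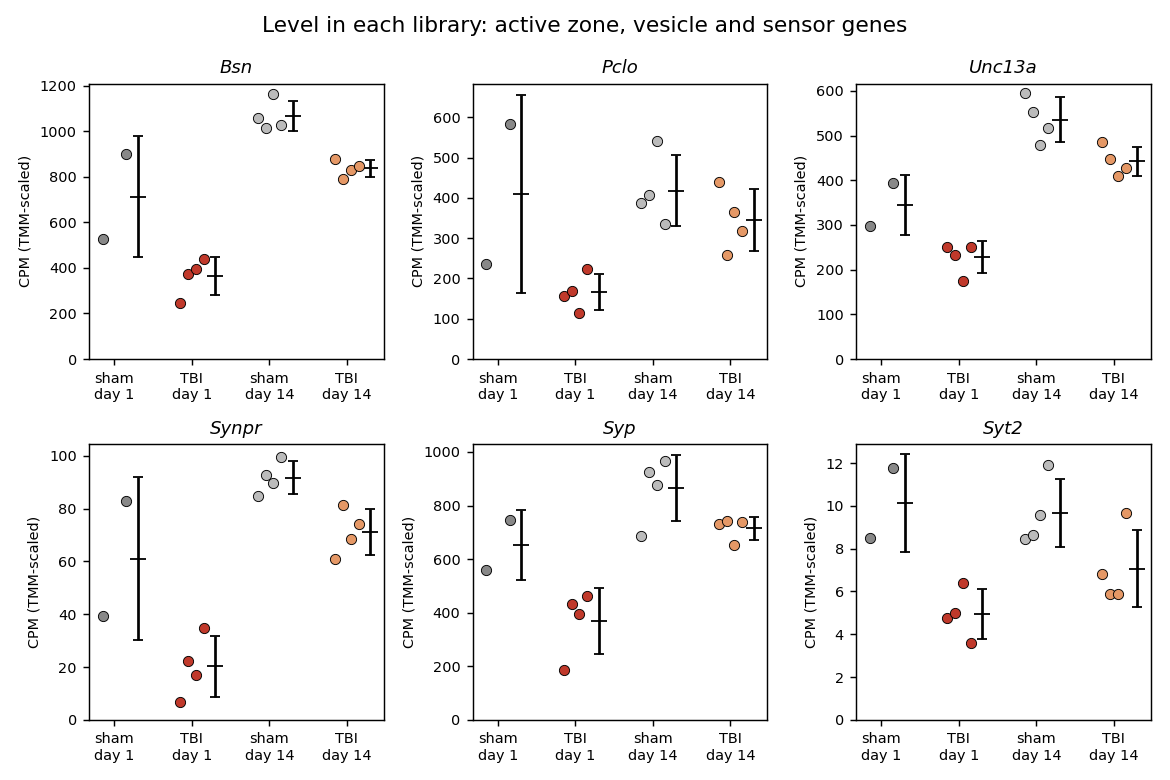
CPM (vertical axis) of 6 of the members called lower at day 1, for each library (points) in the 4 groups, with the group mean and SD (bar) beside them. The TBI day 1 points lie below both sham day 1 points in each panel, while the 2 sham points of Pclo are far apart, at 237 and 585 CPM.

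Among vesicle genes, 4 were called lower at day 1 and 4 more had an adjusted p between 0.05 and 0.10. Synpr encodes synaptoporin, a vesicle membrane protein abundant in mossy fiber terminals and in some interneurons. It was measured at 39.2 and 83.0 CPM in sham day 1 and at 6.90, 22.2, 17.0 and 34.8 CPM in TBI day 1. This was the largest decrease of the list, -1.59 on the log2 scale (SE 0.396, adjusted p = 0.0121), so the level fell by 66.9%. Over single libraries left out, the log2 fold change was -2.04 to -0.95, the latter without sham day 1 replicate 2. At day 14 Synpr stood at 85.0, 92.6, 89.6 and 99.7 CPM in sham and at 61.0, 81.3, 68.3 and 74.3 CPM in TBI. All TBI libraries were again below all shams, but the difference of -0.36 (SE 0.333) had an adjusted p of 0.778.

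Syp encodes synaptophysin, the classical vesicle marker and a relative of synaptoporin. Sham day 1 had 560 and 745 CPM, and TBI day 1 had 187, 432, 395 and 461 CPM. The groups did not overlap, and the log2 fold change was -0.82 (SE 0.262, adjusted p = 0.04). At day 14 the sham libraries had 688, 926, 877 and 968 CPM and the TBI libraries 730, 744, 652 and 738 CPM, which overlapped (log2 fold change -0.27, adjusted p = 0.733). The low value of TBI day 1 replicate 1 stood apart from the other 3.

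Rab3a encodes the vesicle GTPase that binds RIM proteins. It had 1059 and 1536 CPM in sham day 1 against 419, 773, 888 and 919 CPM in TBI day 1 (log2 fold change -0.79, SE 0.265, adjusted p = 0.0496). The TBI values at day 1 overlapped those of both day 14 groups, 632, 759, 826 and 594 CPM in sham and 668, 557, 803 and 560 CPM in TBI. The sham day 1 pair was thus the group that stood apart for Rab3a. The call held in 9 of 23 settings. Its day 1 difference was -1.04 to -0.50 with single libraries left out, the latter without sham day 1 replicate 2.

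Sv2a, a vesicle glycoprotein and the target of the antiepileptic drug levetiracetam, had 317 and 397 CPM in sham day 1 and 219, 257, 272 and 263 CPM in TBI day 1. Its log2 fold change was -0.50 (SE 0.14, adjusted p = 0.023), and the groups were apart. Leaving out single libraries gave -0.65 to -0.33, the latter without sham day 1 replicate 2. The day 14 levels were higher in both groups, from 547 to 692 CPM in sham and from 504 to 554 CPM in TBI. Sv2b, its paralog, had -0.58 (SE 0.23, adjusted p = 0.0879) at day 1 and Sv2c had -0.69 (SE 0.377, adjusted p = 0.214).

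Syn1 encodes synapsin I, which clusters the reserve pool of vesicles. It was at 2356 and 2460 CPM in sham day 1 and at 1498, 1776, 1845 and 1935 CPM in TBI day 1. These groups did not overlap, yet the difference of -0.45 (SE 0.162) had an adjusted p of 0.0651. At day 14 the levels were lower in both groups, at 990, 1270, 1418 and 1060 CPM in sham and at 1287, 1124, 1305 and 1137 CPM in TBI. Syn2 had -0.94 (adjusted p = 0.0525) and Syn3 -0.38 (adjusted p = 0.238) at day 1. Rph3a, which encodes the Rab3 effector rabphilin, was at -0.48 (adjusted p = 0.0699). Rab3b was the member with the highest estimate, 0.23 (SE 0.205, adjusted p = 0.466).

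None of the 6 SNARE genes was called at day 1, although all 6 estimates were below 0 and 4 had an adjusted p between 0.05 and 0.10. Snap25, the plasma membrane SNARE cleaved by botulinum toxin A, had 3394 and 5129 CPM in sham day 1 and 1328, 2782, 3585 and 2787 CPM in TBI day 1. The groups overlapped, and the log2 fold change was -0.70 (SE 0.304, adjusted p = 0.117). At day 14 it had 2137, 2249, 2551 and 1720 CPM in sham and 1764, 1407, 2281 and 1545 CPM in TBI (log2 fold change -0.31, adjusted p = 0.745).

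Vamp2 encodes the vesicle SNARE synaptobrevin-2. It was measured at 2433 and 3244 CPM in sham day 1 against 1403, 1927, 1844 and 2333 CPM in TBI day 1. The groups were apart by a narrow margin, and the difference of -0.60 (SE 0.203) had an adjusted p of 0.0525. Its day 14 groups were nearly level, with 1205, 1398, 1486 and 1118 CPM in sham and 1351, 1201, 1543 and 1100 CPM in TBI (log2 fold change -0.00, SE 0.169, adjusted p = 0.999).

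Stx1a encodes the SNARE syntaxin-1A. The 2 sham day 1 libraries had 246 and 141 CPM and the TBI day 1 libraries 194, 183, 144 and 158 CPM, so the injured values lay between the shams. The log2 fold change was -0.19 (SE 0.197, adjusted p = 0.532). Its sign depended on the sham library, since without sham day 1 replicate 1 it was 0.27 (adjusted p = 0.363). At day 14 Stx1a had 104, 124, 133 and 113 CPM in sham and 93.5, 109, 118 and 94.0 CPM in TBI. Nsf, the ATPase that recycles SNARE complexes, had -0.84 (adjusted p = 0.0513), Napb, which encodes a SNAP adaptor of NSF, had -1.09 (SE 0.436, adjusted p = 0.093), and Vamp1 had -0.46 (adjusted p = 0.0657).

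Of the calcium sensors and clamps, Syt2 and Cplx2 were called lower. Syt2 encodes a fast calcium sensor used by parvalbumin interneurons and by many hindbrain terminals. Its counts were low, at 8.51 and 11.8 CPM in sham day 1 and 4.77, 4.99, 6.42 and 3.58 CPM in TBI day 1, with 80 to 255 counts in these libraries. The groups were apart, and the log2 fold change was -1.04 (SE 0.26, adjusted p = 0.0129). In sham day 14 it had 8.46, 8.65, 9.57 and 11.9 CPM, and in TBI day 14 it had 6.83, 5.86, 5.86 and 9.66 CPM.

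Cplx2 encodes complexin-2, which clamps and then promotes fusion. Its values were 495 and 805 CPM in sham day 1 and 134, 337, 190 and 495 CPM in TBI day 1. The log2 fold change was -1.17 (SE 0.374, adjusted p = 0.0408), but the groups met at their edge, since TBI day 1 replicate 4 equalled sham day 1 replicate 1 at 495 CPM. With single libraries left out the difference was -1.56 to -0.78, the latter without sham day 1 replicate 2. At day 14 it had 264, 250, 363 and 223 CPM in sham and 251, 188, 251 and 265 CPM in TBI. The sham day 1 pair lay above all day 14 libraries. So did TBI day 1 replicate 4, while TBI day 1 replicate 1, at 134 CPM, lay below all of them. Cplx1, its paralog, was at -0.47 (SE 0.186, adjusted p = 0.0883).

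Syt1 encodes synaptotagmin-1, the main sensor for fast release in forebrain excitatory terminals. Sham day 1 had 511 and 1114 CPM, and TBI day 1 had 126, 425, 345 and 529 CPM. The estimate was large, -1.19 on the log2 scale, but its SE was 0.405, the groups overlapped and the adjusted p was 0.0521. At day 14 Syt1 had 529, 699, 898 and 703 CPM in sham and 710, 445, 642 and 617 CPM in TBI (log2 fold change -0.23, adjusted p = 0.889).

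No other synaptotagmin was called at day 1. Syt4 and Syt7 had estimates of -0.71 (adjusted p = 0.0971) and -0.47 (adjusted p = 0.101) at day 1. Syt3 was at 64.0 and 61.0 CPM in sham day 1 and 70.7, 60.8, 66.5 and 49.9 CPM in TBI day 1, a difference of -0.01 (SE 0.151, adjusted p = 0.962). Syt5 was at 0.06 (SE 0.206, adjusted p = 0.874).

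Endocytosis genes were all below 0. Dnm1 encodes dynamin-1, the neuronal GTPase that pinches off vesicles. It had 1834 and 2365 CPM in sham day 1 against 908, 1411, 1637 and 1416 CPM in TBI day 1 (log2 fold change -0.64, SE 0.202, adjusted p = 0.0375). At day 14 the sham libraries had 1962, 2215, 2245 and 1861 CPM and the TBI libraries 2053, 1684, 2043 and 1653 CPM. The groups were apart at day 1 and overlapped at day 14.

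Amph encodes amphiphysin, which recruits dynamin. It stood at 69.5 and 108 CPM in sham day 1 and at 35.6, 53.8, 59.0 and 56.2 CPM in TBI day 1 (log2 fold change -0.79, SE 0.265, adjusted p = 0.0488). Sham day 14 had 47.5, 58.5, 86.0 and 54.1 CPM and TBI day 14 had 64.0, 41.8, 66.5 and 46.3 CPM. The day 1 groups were apart, but 3 of the 4 TBI day 1 values lay within the range of the day 14 shams. The day 1 difference was -1.08 to -0.44 with single libraries left out, the latter without sham day 1 replicate 2. Synj1, encoding the phosphatase synaptojanin-1, had -0.76 (SE 0.258, adjusted p = 0.0516).

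**Figure D3:**
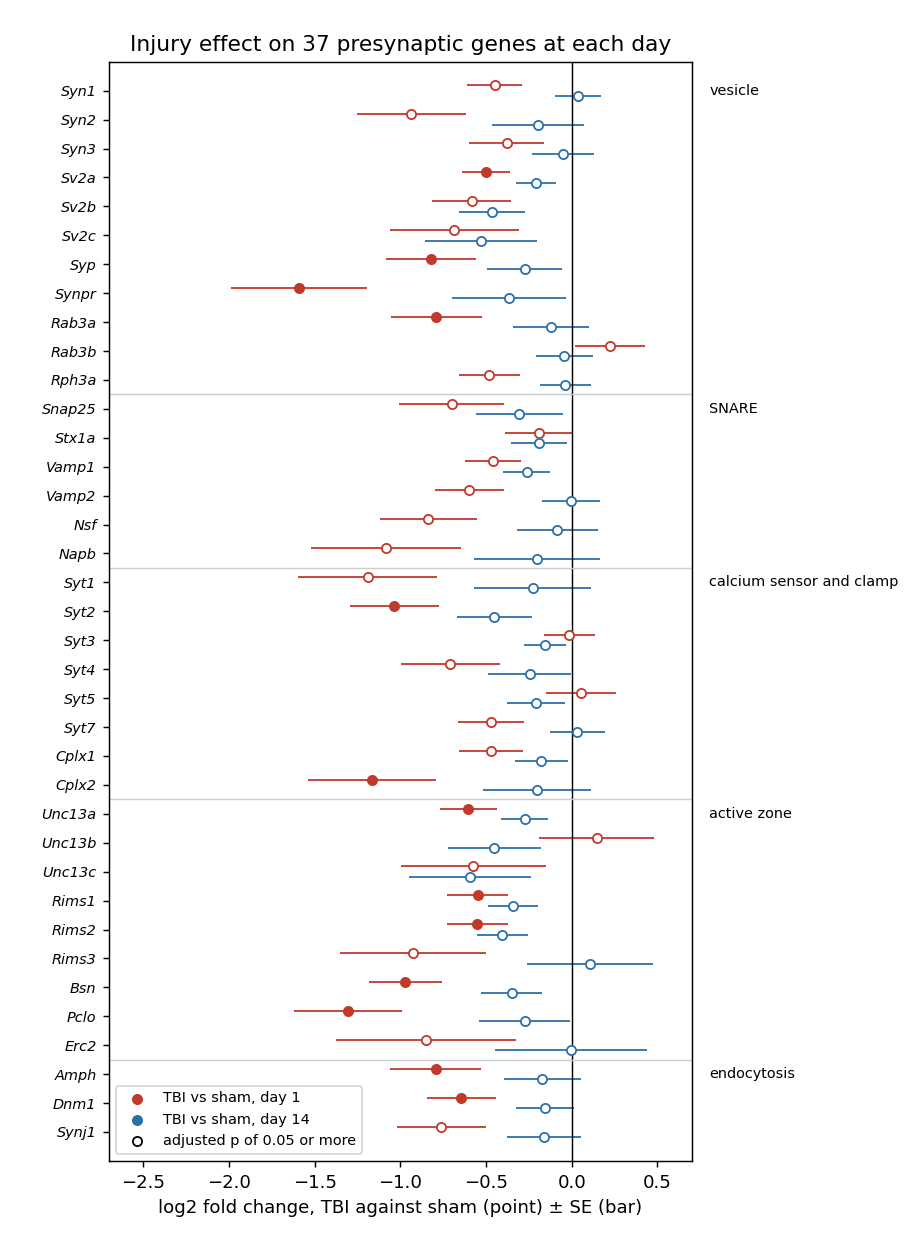
Log2 fold change of TBI against sham (horizontal axis, point) with its SE (bar) for all 37 members, grouped by role, at day 1 (red) and day 14 (blue); filled points passed the test. At day 1, 13 points are filled and 34 lie below 0; at day 14 none is filled and 34 again lie below 0.

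The second comparison asked whether the difference was present at day 14. Estimates were again mostly below 0, for 34 of 37 members (55.8% of all tested genes), but smaller, with a median of -0.20 against -0.03 over all tested genes and a range from -0.60 (Unc13c) to 0.11 (Rims3). No member was called by edgeR, DESeq2 or limma-voom, with 3 at an unadjusted p under 0.05 and lower (Rims1, Rims2 and Sv2b; 4.28% of all tested genes), beside 0.365% of all tested genes called lower and 4.07% higher. The groups were apart, with TBI below sham, for 4 members (Sv2b, Synpr, Rims2 and Bsn), which is 10.8% beside 5.86% of all tested genes. Standard errors ran from 0.117 to 0.444. A fit on the 8 day 14 libraries alone called 3 lower (Sv2b, Rims2 and Bsn), and the fit without TBI day 1 replicate 1 called Sv2b.

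The difference between the injury effects of the 2 days was tested directly. It was below 0, that is, a more negative injury effect at day 1, for 31 of 37 members (49.5% of all tested genes), with a median of -0.48. No member passed by edgeR, DESeq2 or limma-voom, with 5 at an unadjusted p under 0.05 (8.8% of all tested genes), beside 1.44% of all tested genes called with a more negative effect at day 1 and 2.24% with a more positive one. The 5 were Synpr at -1.23 (SE 0.521, adjusted p = 0.209), Pclo at -1.03 (SE 0.414, adjusted p = 0.184), Bsn at -0.62 (adjusted p = 0.235), Vamp2 at -0.59 (adjusted p = 0.235) and Syn1 at -0.48 (adjusted p = 0.221). Pclo was called without sham day 1 replicate 1. That members were called at day 1 and not at day 14 was therefore not matched by a called difference between the days in the reported fit.

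Lists of cell type markers were counted at day 1 too, where 7.93% of all tested genes were called lower and 11.2% higher. The lists did not all move in 1 direction. Of 15 pan-neuronal markers, 3 were called lower and 0 higher at day 1, and their median was -0.60 on the log2 scale, close to the -0.64 of the members. Their summed level was 9160 and 11100 CPM in sham day 1 and 5680 to 7980 CPM in TBI day 1. Of 11 GABAergic interneuron markers tested (12 listed, Npy at 0 in all libraries), 6 were lower, with a median of -0.65 and sums of 905 and 1010 CPM in sham against 600 to 826 CPM in TBI. Oligodendrocyte markers were lower in 5 of 10 (median -0.79, 11400 and 15300 against 4370 to 15900 CPM), microglial markers higher in 6 and lower in 2 of 12 (median 0.96, 487 and 790 against 1010 to 1300 CPM), and 1 of 9 astrocyte markers was called in each direction (median -0.31, against summed levels of 6720 and 10700 in sham and 13700 to 20100 CPM in TBI, so the median and the sum differ in sign). Choroid plexus markers were lower in 14 of 16 tested, with 11400 CPM in sham replicate 1, 237 in sham replicate 2 and 135 to 168 in TBI, and with Otx2 at 0 in all libraries; 1 of 6 thalamus markers was called in each direction (120 and 170 against 111 to 143 CPM). The part of these shifts in the members' result was not tested, except for a fit with a choroid plexus score in the model. That fit called 11 members lower, 9 of them among the 13. Rab3a, Rims1, Rims2 and Amph were no longer called, and Syt1 and Synj1 were added.

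Further presynaptic genes outside the list were counted in the same way. Of 44 such genes, 14 were called lower and 0 higher at day 1, with a median of -0.59, beside 7.93% of all tested genes called lower and 11.2% higher. At day 14, 0 were called, beside 0.365% lower and 4.07% higher. The 4 largest called decreases were Syt10 (-1.91, adjusted p = 0.0103), Rab3c (-1.19, adjusted p = 0.0433), Syngr1, which encodes the vesicle protein synaptogyrin-1 (-1.16, adjusted p = 0.0116), and Sh3gl2, which encodes the endocytic protein endophilin-A1 (-1.03, adjusted p = 0.0247). All 4 were decreases at day 1 that were not called at day 14.

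The sham groups were then compared with each other, because a day 1 sham has just had surgery. Members split. Relative to sham day 14, 8 were higher in sham day 1, which is 21.6% beside 11.3% of all tested genes, and 3 were lower, which is 8.11% beside 7.88%. The higher ones were Cplx2 (log2 fold change 1.24), Vamp2 (1.12), Syn1 (1.02), Snap25 (0.98), Rab3a (0.88), Stx1a (0.71), Cplx1 (0.67) and Rph3a (0.61), of which 3 are SNARE genes, 3 are vesicle genes and 2 are complexins. The lower ones were Syt3 (-1.07), Sv2a (-0.78) and Unc13a (-0.63). None of the 9 active zone genes was called higher, although 5 had estimates above 0 and 4 below. Among them Erc2 was at 1.19 (SE 0.523, adjusted p = 0.121) and Rims3 at 1.07 (SE 0.427, adjusted p = 0.0918). Without sham day 1 replicate 1 the higher count was 5, and without replicate 2 it was 3; it was 2 without sham day 14 replicate 1 or 4, 4 without sham day 14 replicate 2 and 3 with the choroid plexus score in the model. The lower count was 5 without TBI day 1 replicate 1.

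The same days were compared within the injured animals, which share no library with the shams. In TBI day 1 against TBI day 14, 4 members were higher (10.8% beside 21.9% of all tested genes) and 10 lower (27.0% beside 17.6%). Higher in both sham and TBI were Syn1, Vamp2 and Stx1a, which is 8.11% of the list beside 7.69% of all tested genes. Lower in both were Sv2a, Syt3 and Unc13a, again 8.11%, beside 4.68%, a difference that was not tested. By sign alone, 15 members were higher at day 1 in both (40.5% beside 36.7%), 12 were lower in both (32.4% beside 33.8%) and 10 went opposite ways. The shares by sign are near those of all genes, and nothing particular to the list is read from them. Day and any date of tissue processing cannot be told apart.

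**Figure D4:**
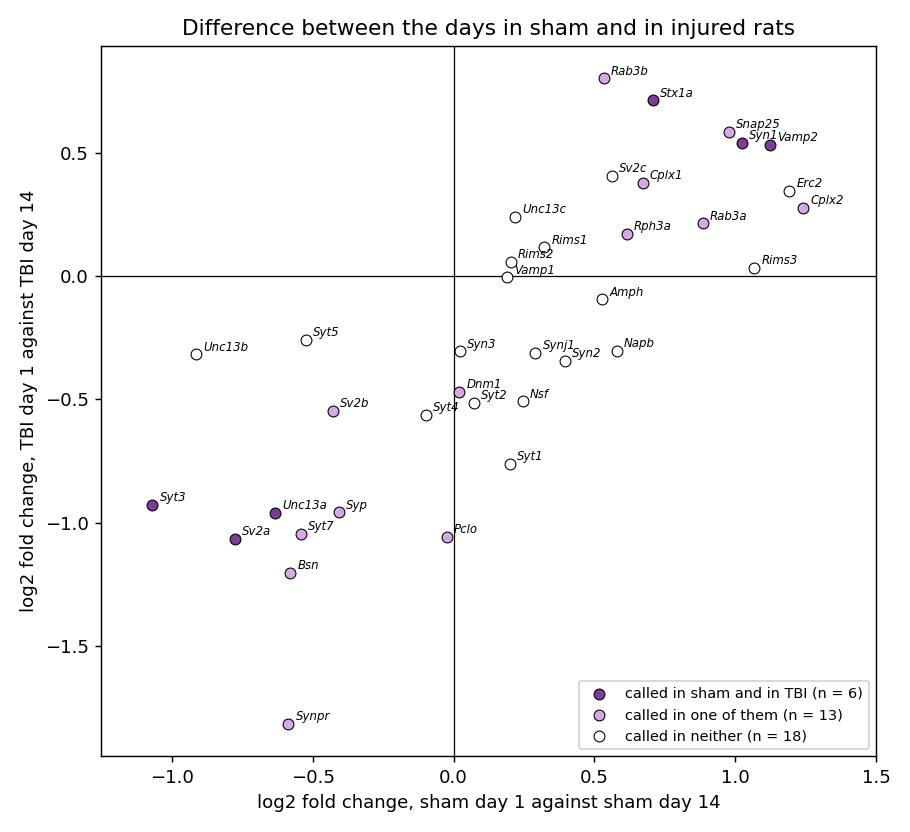
Log2 fold change of day 1 against day 14 in sham (horizontal axis) and in TBI (vertical axis) for the 37 members (points), colored by whether the test called them in both, in 1 or in neither. Stx1a, Vamp2 and Syn1 lie at the upper right and Sv2a, Syt3 and Unc13a at the lower left.

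The 6 genes whose promoters were printed above differed between the days by these amounts. Syn1 was 2.03-fold higher at day 1 in sham (adjusted p = 0.00193) and 1.45-fold higher in TBI (adjusted p = 0.00581), and all 6 day 1 libraries lay above all 8 day 14 libraries. Vamp2 was 2.18-fold higher in sham (adjusted p = 0.00331) and 1.45-fold higher in TBI (adjusted p = 0.0224), where the groups overlapped. Stx1a was 1.63-fold higher in sham (adjusted p = 0.0223) and 1.64-fold higher in TBI (adjusted p = 0.00336), but without sham day 1 replicate 1 the sham difference was 0.25 on the log2 scale (adjusted p = 0.384). All 3 thus had higher levels at day 1 in injured and uninjured animals alike.

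The other 3 genes went the opposite way. Sv2a was at -0.78 in sham (SE 0.148, adjusted p = 0.00451) and -1.07 in TBI (SE 0.118, adjusted p = 1.51e-05). Syt3, a synaptotagmin whose levels at day 14 were 137, 133, 117 and 138 CPM in sham and 112, 138, 106 and 116 CPM in TBI, was at -1.07 in sham (SE 0.158, adjusted p = 0.0016) and -0.93 in TBI (SE 0.124, adjusted p = 6.39e-05). Unc13a was at -0.63 in sham (adjusted p = 0.021) and -0.96 in TBI (adjusted p = 0.00011), and the sham value was -0.45 (adjusted p = 0.148) without sham day 1 replicate 1. For all 3 genes every day 1 library was below every day 14 library of its own treatment. The injury effect on Syt3 was -0.01 at day 1 and -0.15 at day 14, and neither passed the test.

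**Figure D5:**
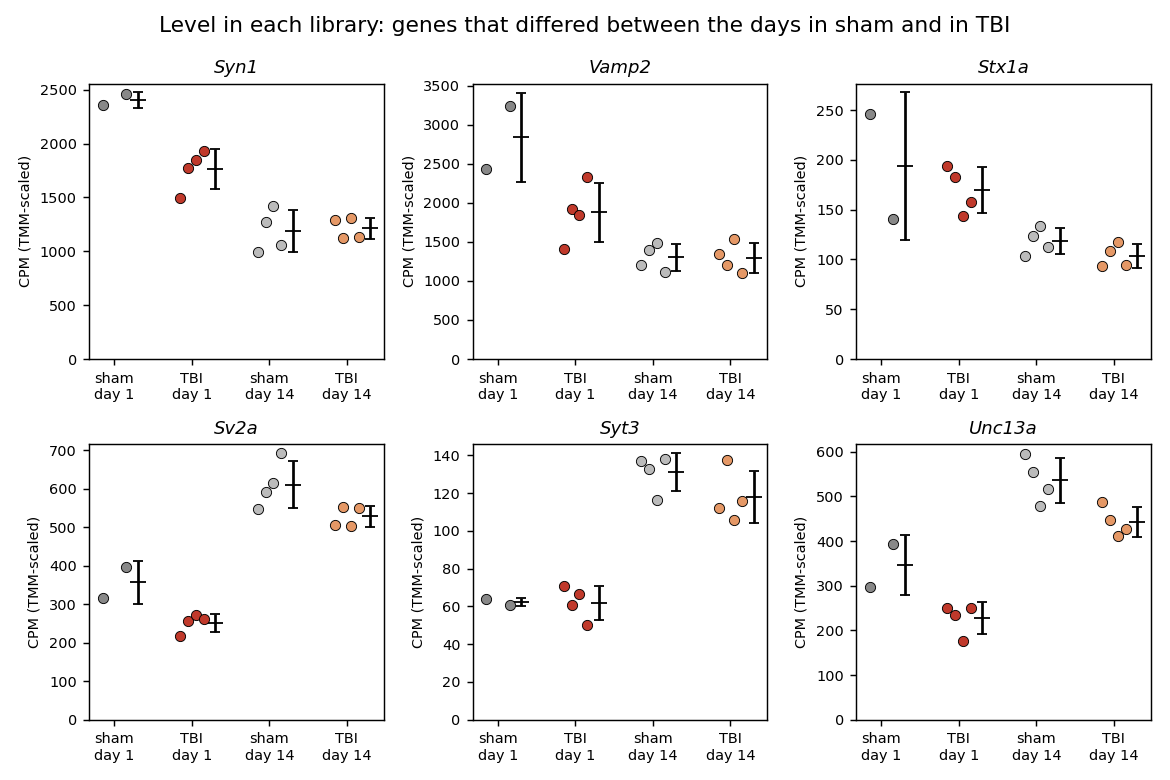
CPM (vertical axis) of the 6 genes called in the same direction between the days in sham and in TBI, for each library (points) in the 4 groups, with the group mean and SD (bar). Syn1, Vamp2 and Stx1a are higher in the day 1 groups, and Sv2a, Syt3 and Unc13a are lower there.

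Sham day 14 was then taken as the baseline, the group the study also chose as baseline for its trajectories; the study corrected those for batch and for the change in sham over time, and no such correction was made here. This baseline changed which members were called in TBI day 1. Against it 15 members were lower, which is 40.5% beside 21.0% of all tested genes, and 4 were higher, 10.8% beside 25.0%. The lower members included 6 of 8 calcium sensors and clamps, 4 of 9 active zone genes, 4 of 11 vesicle genes, 1 of 3 endocytosis genes and 0 of 6 SNARE genes. Synpr was at -2.18 (SE 0.349, adjusted p = 0.000168), Bsn at -1.55 (SE 0.182, adjusted p = 1.16e-05), Sv2a at -1.28 (adjusted p = 1.51e-06) and Unc13a at -1.24 (adjusted p = 7.84e-06). Syt7, a slow calcium sensor, was at -1.01 (adjusted p = 0.000172) and Syt1 at -0.99 (adjusted p = 0.0292). The higher members were Rab3b (0.76, adjusted p = 0.00202), Syn1 (0.57, adjusted p = 0.00308), Vamp2 (0.53, adjusted p = 0.0199) and Stx1a (0.52, adjusted p = 0.0174). Without sham day 14 replicate 1 the higher count was 2.

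The choice of sham thus turned the sign for several members. Syn1 was at -0.45 against sham day 1 and 0.57 against sham day 14, Vamp2 at -0.60 and 0.53, and Stx1a at -0.19 and 0.52. Cplx2 was called lower against sham day 1 at -1.17 and was at 0.07 (adjusted p = 0.868) against sham day 14, and Rab3a moved from -0.79 to 0.09 (adjusted p = 0.757). Bsn, Pclo, Synpr, Syp, Sv2a, Unc13a, Syt2 and Dnm1 were called lower against either sham. For Pclo the 2 values were nearly the same, -1.31 and -1.33, and for Dnm1 they were -0.64 and -0.62. The 2 comparisons share the TBI day 1 libraries, and the one against sham day 14 also differs by day. Of the members called lower against either sham, Sv2a (-0.78) and Unc13a (-0.63) were themselves called lower in sham day 1 than in sham day 14. Synpr (-0.59), Bsn (-0.58) and Syp (-0.41) were also lower in sham day 1 but not called. Between the shams Pclo was at -0.02, Dnm1 at 0.02 and Syt2 at 0.07.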

How the data were processed

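RNA-seq was analysed for 14 hippocampi, grouped by the labels into sham and TBI at day 1 and day 14. The deposited values are raw counts per gene; the authors made stranded mRNA libraries, read them as single ends, aligned them with STAR 2.4.2a to rat build rn5 and counted reads with featureCounts 1.5.0. The strand setting is not given in the sources used here. Histone peak lists of the series were not used here. The table had 0 columns without a sample, and 2 gene names were given more than 1 time.

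The members and all gene lists were chosen with earlier results of these data known. Counts were fitted with edgeR 4.0.16 (R 4.3.3): TMM factors, filterByExpr, 1 mean per group over all 14 libraries, a two-sided quasi-likelihood test and Benjamini-Hochberg adjustment over 12875 genes at 0.05. The study used limma-voom. DESeq2 1.42.0, limma-voom (limma 3.58.1), median-of-ratios factors, no filter, at least 10 counts in every sample, a replicate block, only the groups compared, a choroid plexus score and each library left out were alternatives. The comparison of TBI day 1 with TBI day 14 was added after the sham groups were seen to differ.

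Values in every library are given for Snap25, Stx1a, Vamp2, Syt1, Syp, Syn1 and Bsn, for the 12 called members with the largest day 1 injury effects, for any member called at day 14 or between the days, and for the 6 largest between the shams; Sv2a was given in addition, after its values were seen. Of other presynaptic genes, the 4 largest called changes were named. Each library is 1 rat, so p-values measure the spread between rats. Replicates of a group differed by 13.29 to 171.4 chi-squared per degree of freedom over 19 pairs, so none was the same library sequenced again. This check cannot tell 1 rat from another, and 1 library per rat is taken from the design of the study. On counts simulated for TBI against sham at day 1 (12729 genes), edgeR recovered 9 of 67 genes changed 1.5-fold, 35 of 67 changed 2-fold and 62 of 66 changed 4-fold, with 8 calls among unchanged genes. For the same changes DESeq2 recovered 19, 51 and 65 genes, but with 35 calls among unchanged genes. The same counts for limma-voom were 9, 39 and 60, with 7 calls among unchanged genes. Far fewer genes were changed in the simulation than were called in the data at day 1 (1437 higher and 1021 lower). The adjustment depends on that number, so these rates do not describe the reported test.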

Additional observations from a re-analysis of the deposited data

Results flagged for a closer look

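Of 111 groups of 4 libraries tested for a library far from the others (37 members in 3 groups), 7 had one, and chance alone flags about 1 in 20 groups. The measure is the gap to the nearest library divided by the range of the group, set against Dixon's 95% limit for 4 samples. In TBI day 1, replicate 1 was far below the others for Nsf (0.913, at 284 CPM), Syn2 (0.889, at 155 CPM) and Syp (0.831, at 187 CPM). This is the library with the lowest level of all 14 for 19 members. Replicate 3 of the same group was low for Rims1 (0.862, at 239 CPM). In TBI day 14, replicate 3, which holds choroid plexus RNA, was low for Syp (0.854, at 652 CPM), and replicate 2 was low for Cplx2 (0.841, at 188 CPM). In sham day 14, replicate 1 was low for Sv2c (0.984, at 2.82 CPM).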

How the results depend on the processing

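For members lower in TBI at day 1 (13), DESeq2 and the replicate block each gave 21, only the groups compared gave 0, and leaving out single libraries gave 0 to 18. At day 14 (0 lower), only the groups compared gave 3, and leaving out libraries 0 to 1. For the difference between days (0), leaving out libraries gave 0 to 1. Between shams, the 8 higher became 3 with the choroid plexus score and 2 to 10 without single libraries, and the 3 lower became 6 with DESeq2, 6 with the replicate block, 5 with only the groups compared and 2 to 5 without single libraries. For TBI day 1 against sham day 14, leaving out libraries turned the 4 higher into 2 to 5 and the 15 lower into 12 to 16; DESeq2 gave 17 lower. For TBI day 1 against TBI day 14, leaving out libraries gave 3 to 6 higher and 8 to 11 lower. Where the count moved because libraries were left out, fewer samples were fitted. Otherwise the cause was not tested. Shares of all tested genes were taken for the reported fit only, so these counts have no background beside them. The day 1 injury effect on Stx1a turned positive with the choroid plexus score (0.12), and leaving out single libraries gave -0.54 to 0.27. The replicate block rests on replicate numbers, which are not known to pair the animals. Deviations of same-numbered samples correlated at -0.35 to 0.24, with 5 of 18 pairs above 0.1. Differently numbered samples correlated at -0.43 to 0.35, and the 2 sham day 1 libraries give mirrored values. These correlations therefore cannot show whether the numbers carry a shared batch. Where an arm was left with 1 sham, that sham was assumed to vary like the other groups. With 2 shams at day 1, the simulation recovered 13.4% of changes of 1.5-fold and 52.2% of those of 2-fold. It changed far fewer genes than were called in the data, so these are not the rates of the reported test.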
